A study of Homo sapiens with 4 samples.

Results

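The serine and one-carbon synthesis enzymes described here are the products of 10 genes: PHGDH, PSAT1 and PSPH, which make serine from a glycolytic intermediate; SHMT1 and MTHFD1, which work on folate in the cytosol; SHMT2, MTHFD2, MTHFD1L and ALDH1L2, which do so in mitochondria; and ASNS, which makes asparagine. They were taken by gene symbol, and each symbol had a row in the authors' table, so the set holds 10 of the 48162 genes listed. Of the 10, 8 averaged 1 FPKM or more across the libraries and entered the test. FPKM corrects the number of fragments for the listed length of the gene and the depth of the library, so levels of different genes can be compared approximately.

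The samples were RNA libraries, selected for poly(A), from cells of MDA-MB-231, an established human line from a triple-negative breast cancer. Cells in DMEM with fetal bovine serum received vehicle (2 libraries) or 10 µM MGH-CP1 (2 libraries), and RNA was taken after 24 h in both groups. The title of the series calls MGH-CP1 an inhibitor of TEAD palmitoylation, the lipid modification of the TEAD proteins, through which YAP and TAZ act on DNA. The design is a single contrast in 1 cell line, at 1 dose and 1 time. Nothing in the labels says that replicates came from separate cultures, so p-values measure only the spread between libraries, which may be technical.

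In this pathway PHGDH, PSAT1 and PSPH turn 3-phosphoglycerate into serine, and the SHMT enzymes pass a carbon of serine to tetrahydrofolate, leaving glycine. The MTHFD enzymes then oxidise or reduce that carbon on its folate carrier, in mitochondria mostly toward formate and in the cytosol toward the forms used to build purines, thymidylate and methionine. Breast cancer lines are known to differ widely in PHGDH, and lines with little of it depend more on serine from the medium. Several of these genes, with ASNS, are known targets of ATF4, the transcription factor of the amino acid response, and several are known MYC targets.

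The reads summed to between 16790645 and 18485701 per library, spread over 20000 to 20544 detected genes. The label of the cell line was set against marker genes. Of 6 MDA-MB-231 markers, VIM, CD44, CAV1, MSN and AXL were at 147 FPKM or more in every library, while SPARC was below 1 FPKM in each. Of the 4 luminal receptor genes, PGR was at 0 throughout and ESR1 in 3 of 4 libraries, FOXA1 was below 1 FPKM in each, and ERBB2 was at 24.5 to 26.3 FPKM. Summed levels were 3.15 to 4.78 FPKM for 6 fibroblast markers, 3.58 to 3.96 for 6 immune markers and 0.469 to 0.938 for the 4 endothelial markers matched, with no separation of the groups in any of the 3 sums. The sums hide low markers that differed within vehicle, more of them with higher reads in replicate 1. In vehicle replicates 1 and 2, COL3A1 had 37 and 0 reads, SPARC 31 and 2, and COL1A2 337 and 184. LUM had 12 and 2 reads, DCN 9 and 0, and FOXA1 12 and 1. In the other direction, PTPRC had 0 and 8 reads, PDGFRB 104 and 123, and KDR 55 and 85. From bulk RNA, fewer cells of a kind and less RNA per cell cannot be told apart.

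Most of the serine and one-carbon enzymes were expressed at a lower level in cells treated with MGH-CP1. PSAT1 fell 2.22-fold, MTHFD2 2.03-fold and PSPH 1.83-fold by group means, MTHFD1 was at 56.7% of vehicle, MTHFD1L at 59.0%, and SHMT1 and SHMT2 at 75.6% and 75.2%. ASNS was at 86.0% of vehicle and did not pass the test. PHGDH and ALDH1L2 lay below the filter of this test, and their values overlapped between groups. Summed over the 10 genes, expression was 191 and 182 FPKM in the vehicle libraries and 118 and 115 FPKM in the MGH-CP1 libraries.

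Of the 8 tested enzymes, 7 were called lower and 0 higher with limma at an adjusted p under 0.05, with a median log2 fold change of -0.75. Among all 11790 genes tested, 25.1% were called lower and 20.0% higher, and the median log2 fold change was -0.02. In all 8 tested enzymes both MGH-CP1 libraries lay below both vehicle libraries, an arrangement seen in 39.4% of tested genes. A lower call was thus common in the whole data set, and the count of 7 of 8 is given beside that background with no test of the list. The enzymes were chosen with earlier results of these data known, so this count is a description. With other processing the number of these enzymes called lower was 6 to 8 over 14 alternatives, and 0 were called higher in each.

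**Figure D1:**
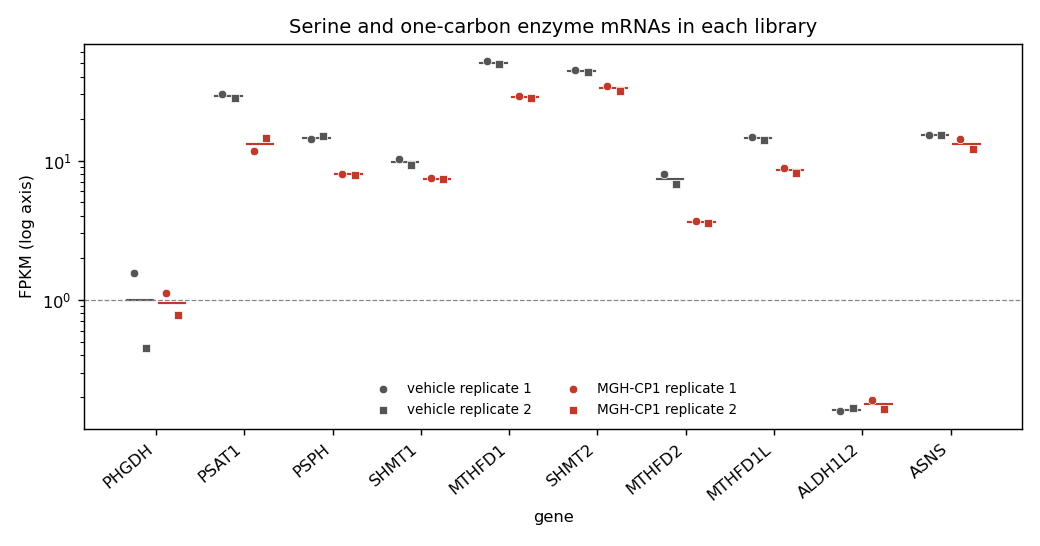
FPKM (log axis) of each of the 10 genes in each library, with replicates as circles and squares and the group mean as a short line. The dashed line marks 1 FPKM. The MGH-CP1 points lie below the vehicle points for the 8 tested genes, while the PHGDH and ALDH1L2 points of the groups overlap.

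**Figure D2:**
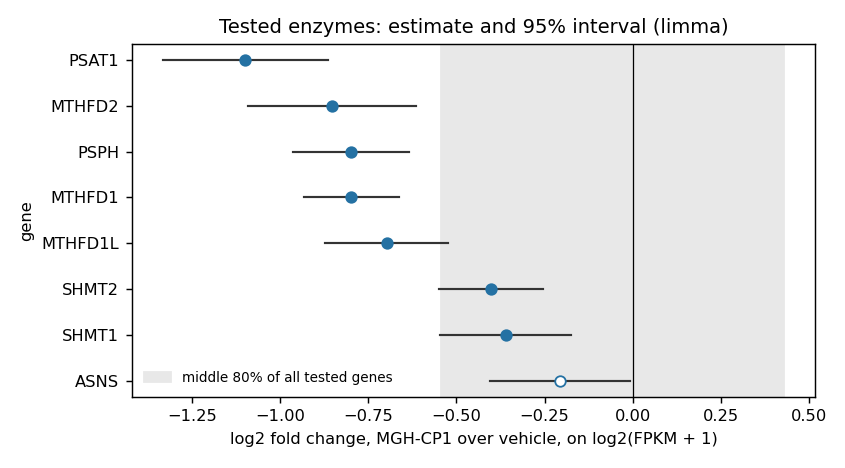
Log2 fold change of MGH-CP1 over vehicle for the 8 tested enzymes, on the log2(FPKM + 1) scale, with 95% intervals from limma. Filled points were called and the open point (ASNS) was not, and the grey band from -0.54 to 0.43 holds the middle 80% of all tested genes. Estimates for PSAT1, MTHFD2, PSPH, MTHFD1 and MTHFD1L lie below the band, while those for SHMT2, SHMT1 and ASNS lie inside it.

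Promoter sequence was examined because these enzymes are known as targets of ATF4 and MYC and moved in a common direction here. RefSeq promoter windows (GRCh38.p14, 250 bases before to 50 bases after the start) were matched for 7 of the 10 genes, with 11 windows in all. The windows were searched on both strands for the C/EBP-ATF response element TGATGNAA, to which ATF4 binds with a C/EBP partner, the MYC and MAX E-box CACGTG, the antioxidant response element TGACNNNGC and the TEAD element GGAATG. In these windows no match of one motif overlapped a match of another. The stretches printed here end at the base before the annotated start and read 5′ to 3′. Those of MTHFD1L and MTHFD1, which fell, and of ASNS, which was not called, hold a response element or an E-box, in capitals, and that of PSAT1, with the most negative log2 fold change of the 8, holds neither, as do the windows of PHGDH, SHMT1 and MTHFD2, which are not printed.
MTHFD1L (chr6:150866236-150866485, plus strand): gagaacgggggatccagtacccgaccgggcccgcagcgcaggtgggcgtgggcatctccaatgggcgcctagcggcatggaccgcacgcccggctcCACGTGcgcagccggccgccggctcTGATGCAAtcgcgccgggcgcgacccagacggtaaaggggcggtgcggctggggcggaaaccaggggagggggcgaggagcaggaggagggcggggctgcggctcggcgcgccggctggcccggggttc
MTHFD1 (chr14:64388103-64388352, plus strand): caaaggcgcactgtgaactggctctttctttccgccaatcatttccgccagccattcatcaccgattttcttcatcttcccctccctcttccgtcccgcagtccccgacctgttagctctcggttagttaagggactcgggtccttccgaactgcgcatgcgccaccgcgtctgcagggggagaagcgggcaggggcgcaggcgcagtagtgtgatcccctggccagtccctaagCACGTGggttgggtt
ASNS (chr7:97872409-97872658, minus strand): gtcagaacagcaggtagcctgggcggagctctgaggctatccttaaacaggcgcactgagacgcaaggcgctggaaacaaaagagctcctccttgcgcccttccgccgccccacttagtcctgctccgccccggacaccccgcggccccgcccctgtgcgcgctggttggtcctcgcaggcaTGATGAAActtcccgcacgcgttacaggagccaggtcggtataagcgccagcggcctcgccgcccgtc
PSAT1 (chr9:78296875-78297124, plus strand): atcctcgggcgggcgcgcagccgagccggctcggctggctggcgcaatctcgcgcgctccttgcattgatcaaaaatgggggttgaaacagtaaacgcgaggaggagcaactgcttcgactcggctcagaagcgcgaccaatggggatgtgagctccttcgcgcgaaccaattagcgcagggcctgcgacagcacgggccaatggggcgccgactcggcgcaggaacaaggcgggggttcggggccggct

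A C/EBP-ATF response element was found in 4 of the 11 windows, from 2 of the 7 genes. MTHFD1L has 4 annotated starts, and 3 of its windows overlap and hold the same copy, TGATGCAA, which lies 129 or 90 bases before the start or 25 bases after it, depending on which start is used. The printed stretch belongs to the first of these, and the fourth window has neither element nor E-box. In 1 of the 2 ASNS windows the element lay 68 bases before the start as TGATGAAA, within the amino acid response site for which that promoter is known. The full pattern TGATGNAA, on either strand, occurs in 1264 of 34796 distinct RefSeq promoter windows of this length (3.63%). An E-box was found in 4 of the 11 windows, in MTHFD1 at 15 bases before the start and in the same 3 windows of MTHFD1L at 154, 115 or 1 base before it, and in 7.20% of all windows. MTHFD2 held a match to the antioxidant response element just after its start, as did 13.3% of windows, and the TEAD element, present in 14.0% of windows, was found in 0 of the 7 genes. These matches describe letters in short windows and do not show binding.

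Serine synthesis starts with PHGDH (ENSG00000092621, hg19 chromosome 1, 120202421 to 120286838, plus strand), the dehydrogenase that commits 3-phosphoglycerate to the pathway. Its level was 1.55 and 0.449 FPKM in the vehicle libraries and 1.13 and 0.779 FPKM in the MGH-CP1 libraries. The vehicle pair enclosed the MGH-CP1 pair, and the group means were 0.999 ± 0.777 and 0.953 ± 0.246 FPKM (SD, n = 2). These values rest on 91, 24, 62 and 42 reads. PHGDH lay under the filter of 1 FPKM, so it was left out of the limma test described above. The same test without the filter gave 0.02 on the log2 scale (limma, adjusted p = 0.995). A voom test of reads without the filter, added after the data were seen, gave 0.13 (limma with voom, adjusted p = 0.868). Both values are means of logs, which weigh the spread of the vehicle pair differently from the FPKM means, and neither fit called a change.

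The spread of PHGDH within vehicle was wide, 3.44-fold between replicate 1 and replicate 2, against 1.45-fold within MGH-CP1. Of 2734 genes with means from 0.5 to 2 FPKM, 54 (1.98%) were at least that much higher in vehicle replicate 1 and 41 in vehicle replicate 2. The low markers COL3A1, SPARC, COL1A2, LUM, DCN and FOXA1 also had more reads in vehicle replicate 1, while PTPRC, PDGFRB and KDR had fewer. The cause of the PHGDH spread was not tested. PHGDH mRNA was low in every library, far below PSAT1 and PSPH, which act after it.

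PSAT1 (ENSG00000135069, hg19 chromosome 9, 80912059 to 80945009, plus strand) is the aminotransferase of the next step, which takes its nitrogen from glutamate. It was at 29.9 and 28.2 FPKM in vehicle and at 11.7 and 14.5 FPKM with MGH-CP1, on 442 to 1208 reads per library. Both treated libraries were below both vehicle libraries by a margin wider than the spread in either group. Means went from 29.0 ± 1.16 to 13.1 ± 2.01 FPKM (SD, n = 2), a log2 fold change of -1.10 ± 0.10 (SE, 95% interval -1.33 to -0.86, limma, adjusted p = 0.000185). Of the 11790 tested genes, 226 (1.92%) had a lower log2 fold change. The 4 pseudogenes named after PSAT1 were at 0 in each library.

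PSPH (ENSG00000146733, hg19 chromosome 7, 56078744 to 56119297, minus strand), the phosphatase that releases free serine, was at 14.2 and 15 FPKM in vehicle and at 7.96 and 7.93 FPKM with MGH-CP1. Replicates were close in both groups and the groups did not overlap. Means went from 14.6 ± 0.548 to 7.95 ± 0.0226 FPKM (SD, n = 2), a log2 fold change of -0.80 ± 0.07 (SE, limma, adjusted p = 0.000162). PSPH is uncertain in 1 respect, since the pseudogene PSPHP1 is a near copy and was listed at 16.8, 20.5, 22.4 and 21.5 FPKM in the same order of libraries. PSPHP1 was not called (log2 fold change 0.23, limma, adjusted p = 0.0900), and how reads shared by the pair were assigned is not given in the sources used here.

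Folate enzymes of the cytosol were lower with treatment. MTHFD1 (ENSG00000100714, hg19 chromosome 14, 64854749 to 64926725, plus strand), the enzyme of 3 activities that interconverts one-carbon folates in the cytosol, had the highest level of the 10 genes in vehicle. It was at 51.5 and 49.4 FPKM in vehicle and at 28.9 and 28.3 FPKM with MGH-CP1, on 1653 to 3285 reads. The groups were far apart relative to their replicates, with means of 50.5 ± 1.54 and 28.6 ± 0.466 FPKM (SD, n = 2). Its log2 fold change was -0.80 ± 0.06 (SE, 95% interval -0.93 to -0.66, limma, adjusted p = 7.42e-05). On the opposite strand the gene is overlapped by ZBTB25, at a mean of 3.70 FPKM, and by the antisense gene CTD-2555O16.2, which rose from 0.688 and 1.19 to 3.05 and 3.54 FPKM (limma, adjusted p = 0.00104). Whether strand was used in counting is not given in the sources used here, so reads of overlapping genes may not be told apart.

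SHMT1 (ENSG00000176974, hg19 chromosome 17, 18231187 to 18266856, minus strand), the cytosolic serine hydroxymethyltransferase, was at 10.2 and 9.31 FPKM in vehicle and at 7.45 and 7.34 FPKM with MGH-CP1. The groups did not overlap, and means went from 9.78 ± 0.659 to 7.39 ± 0.0774 FPKM (SD, n = 2). Its log2 fold change was -0.36 ± 0.08 (SE, limma, adjusted p = 0.00894). Without MGH-CP1 replicate 2 the estimate was -0.35 and the call was lost (limma, adjusted p = 0.0552), with adjusted p from 0.00422 to 0.0552 over the 14 alternatives. The transcript RP1-178F10.3 overlaps SHMT1 by 183 bases on the opposite strand and was at a mean of 17.6 FPKM (a log2 change of -0.02).

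The 3 tested mitochondrial enzymes fell as well. SHMT2 (ENSG00000182199, hg19 chromosome 12, 57623110 to 57628718, plus strand), the mitochondrial serine hydroxymethyltransferase, was at 44.8 and 43.1 FPKM in vehicle and at 34.3 and 31.8 FPKM with MGH-CP1. Each treated library was below each vehicle library, and means went from 44.0 ± 1.25 to 33.1 ± 1.8 FPKM (SD, n = 2). Its log2 fold change was -0.40 ± 0.06 (SE, 95% interval -0.55 to -0.25, limma, adjusted p = 0.00207). In vehicle it was second to MTHFD1, and with MGH-CP1 it had the highest level of the 10 genes.

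MTHFD2 (ENSG00000065911, hg19 chromosome 2, 74425689 to 74444692, plus strand) is the mitochondrial dehydrogenase and cyclohydrolase, known for high expression in embryos and tumours and little in most adult tissue. Its level was 7.98 and 6.74 FPKM in vehicle and 3.70 and 3.53 FPKM with MGH-CP1, on 267 to 657 reads. The highest treated value was well below the lowest vehicle value. Means went from 7.36 ± 0.877 to 3.62 ± 0.117 FPKM (SD, n = 2), which is 49.1% of vehicle, with a log2 fold change of -0.85 ± 0.10 (SE, 95% interval -1.09 to -0.61, limma, adjusted p = 0.000606). The estimate depends on the pseudocount and was -0.52 with a pseudocount of 5, still called. On recovered reads it was -1.02 (limma with voom). RP11-287D1.3 and SLC4A5 overlap MTHFD2 on the opposite strand by 5962 and 1324 bases, at means of 0.0201 and 0.0174 FPKM. How reads in these shared stretches were assigned is not given in the sources used here.

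MTHFD1L (ENSG00000120254, hg19 chromosome 6, 151186685 to 151423023, plus strand), which releases formate from the mitochondrial folate carrier, was at 14.8 and 14.0 FPKM in vehicle and at 8.82 and 8.2 FPKM with MGH-CP1. The groups were separate, with means of 14.4 ± 0.577 and 8.51 ± 0.443 FPKM (SD, n = 2). Its log2 fold change was -0.70 ± 0.07 (SE, 95% interval -0.87 to -0.52, limma, adjusted p = 0.000371). MTHFD1L lay close to PSPH in both level and change, and the values of the pair overlapped in vehicle but not with MGH-CP1.

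ALDH1L2 (ENSG00000136010, hg19 chromosome 12, 105413568 to 105478355, minus strand), which oxidises formyl folate to carbon dioxide in mitochondria, was at 0.158 and 0.166 FPKM in vehicle and at 0.192 and 0.164 FPKM with MGH-CP1. The groups overlapped and each value rests on 21 to 25 reads. Its level stayed below 1 FPKM in every library, so it was not tested with the other enzymes. Without the filter its change was 0.02 on the log2 scale (limma, adjusted p = 0.825), and 0.13 in the added test of reads (limma with voom, adjusted p = 0.835). C12orf45 overlaps it on the opposite strand at a mean of 5.42 FPKM and fell by 0.49 on the log2 scale (limma, adjusted p = 0.00460).

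ASNS (ENSG00000070669, hg19 chromosome 7, 97481430 to 97501854, minus strand), which makes asparagine from aspartate and glutamine, did not pass the test. It was at 15.3 FPKM in both vehicle libraries and at 14.2 and 12.1 FPKM with MGH-CP1. The treated values were both below the vehicle values but spread more widely than these. Means were 15.3 ± 0.0329 and 13.1 ± 1.47 FPKM (SD, n = 2), and the log2 fold change was -0.21 ± 0.08 (SE, 95% interval -0.41 to -0.01, limma, adjusted p = 0.0832). MGH-CP1 replicate 1 and replicate 2 decide the call: without replicate 1 the estimate was -0.31 (limma, adjusted p = 0.0496), and without replicate 2 it was -0.10 (limma, adjusted p = 0.484).

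The order of levels ranks these mRNAs by FPKM and rests on the listed length of each gene. In vehicle the order from high to low by mean was MTHFD1, SHMT2, PSAT1, ASNS, PSPH, MTHFD1L, SHMT1, MTHFD2, PHGDH and ALDH1L2, and PSPH and MTHFD1L were the only neighbours whose values overlapped. With MGH-CP1 it was SHMT2, MTHFD1, ASNS, PSAT1, MTHFD1L, PSPH, SHMT1, MTHFD2, PHGDH and ALDH1L2, with overlap of ASNS and PSAT1. Among all tested genes, the vehicle level of MTHFD1 was above 89.2% of genes and that of MTHFD2 above 41.4%, so the 8 enzymes covered a wide range of levels. The enzymes with a larger fall were spread over this range, from MTHFD2 at the low end to MTHFD1 at the high end.

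**Figure D3:**
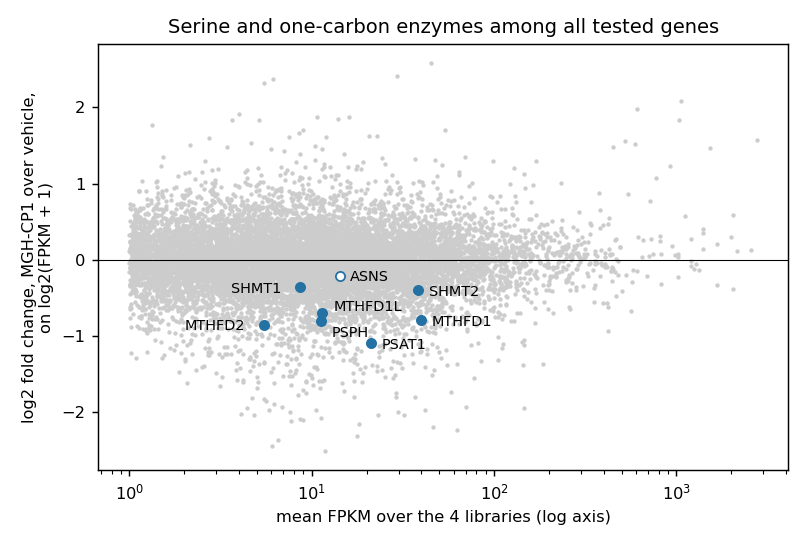
Mean FPKM over the 4 libraries (log axis) against log2 fold change of MGH-CP1 over vehicle for all 11790 tested genes (grey), with the 8 tested enzymes in blue and ASNS, which was not called, as an open point. The enzymes lie below 0 at low, middle and high levels.

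Ratios between partner enzymes within a library do not depend on how the library was scaled. With 2 against 2 libraries the exact two-sided permutation test cannot give a p below 0.333, so no ratio could pass a threshold. The ratio of SHMT2 to SHMT1 was 4.38 and 4.63 in vehicle and 4.61 and 4.33 with MGH-CP1, so the mitochondrial and the cytosolic form kept overlapping ratios (exact permutation p = 0.667). MTHFD1L over MTHFD1 was 0.288 and 0.284 in vehicle against 0.305 and 0.290 in treated libraries (log2 difference 0.06). MTHFD2 over MTHFD1 was 0.155 and 0.136 in vehicle against 0.128 and 0.125 in treated libraries (log2 difference -0.20, exact permutation p = 0.333). Summed by compartment, the 4 mitochondrial enzymes were at 67.8 and 64.0 FPKM in vehicle and at 47.1 and 43.7 FPKM with MGH-CP1, and the 2 cytosolic enzymes at 61.8 and 58.7 and at 36.4 and 35.6 FPKM.

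Ratios to the low genes moved more but are less precise. PSAT1 over PHGDH was 19.3 and 62.8 in vehicle and 10.4 and 18.7 with MGH-CP1, and the vehicle values differ by the spread of PHGDH. PSPH over PHGDH was 9.16 and 33.3 against 7.06 and 10.2, which overlap (exact permutation p = 0.667). ALDH1L2 over MTHFD1L was 0.0106 and 0.0118 in vehicle against 0.0217 and 0.0200 in treated libraries (log2 difference 0.89, exact permutation p = 0.333). MTHFD1L, the denominator, fell, and ALDH1L2 itself did not separate the groups.

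Other genes around the pathway were read from lists chosen with earlier results of these data known, so their counts are descriptions. Each list count is to be read beside the 25.1% lower and 20.0% higher among all tested genes. Among other folate and glycine cleavage enzymes, 11 of 18 were tested, of which 2 were lower, 2 higher and 7 not called, with a median log2 fold change of -0.09. TYMS, thymidylate synthase, fell from 46.3 ± 8.53 to 16.6 ± 0.0439 FPKM (a log2 change of -1.42 ± 0.11, limma, adjusted p = 0.00011). SARDH, which takes a one-carbon unit from sarcosine, was called higher (0.29 on the log2 scale, limma, adjusted p = 0.0154). The SARDH call was lost without MGH-CP1 replicate 1 (limma, adjusted p = 0.0970) or replicate 2 (adjusted p = 0.0861). The glycine decarboxylase gene GLDC, named here after its values were seen, was at 0.158 FPKM or less in each library.

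Among carriers of folate and serine, 12 of 14 genes were tested, with 5 lower, 3 higher and 4 not called (median log2 fold change -0.31). SLC25A32, the mitochondrial folate carrier, went from 15.8 ± 0.711 to 10.2 ± 0.659 FPKM (a log2 change of -0.59 ± 0.08, limma, adjusted p = 0.000871). SFXN1, which brings serine into mitochondria, went from 36.9 ± 0.253 to 26.7 ± 0.625 FPKM (-0.45 ± 0.06, adjusted p = 0.000771). Of the serine carriers of the plasma membrane, SLC1A5 fell from 127 ± 2.58 to 74.8 ± 0.162 FPKM and SLC1A4 from 3.98 ± 0.0976 to 1.65 ± 0.265 FPKM. SLC38A1 and SLC36A1 of the same list, named after their values were seen, were not called (limma, adjusted p = 0.928 and 0.109). Genes of the list that rose were SLC38A2, a carrier of serine and other neutral amino acids, from 72.7 ± 5.68 to 112 ± 3.24 FPKM, the glycine carrier SLC6A9 and the sideroflexin SFXN3, from 24.8 ± 0.624 to 36.4 ± 0.949 FPKM. The sideroflexins therefore did not share a direction, as SFXN2 went from 4.76 and 4.85 FPKM to 2.54 and 2.57 FPKM (limma, adjusted p = 0.000948).

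In the methionine cycle and transsulfuration list, 10 of 14 genes were tested, with 4 lower, 2 higher and 4 not called (median log2 fold change -0.10). MTRR, which reactivates methionine synthase, went from 14.3 ± 0.0228 to 8.11 ± 0.163 FPKM (a log2 change of -0.74 ± 0.07, limma, adjusted p = 0.000193). AHCY, which clears S-adenosylhomocysteine, went from 114 ± 3.88 to 87.3 ± 1.85 FPKM (-0.39 ± 0.06, adjusted p = 0.00156). MTR, methionine synthase itself, was lower by a log2 change of -0.38 (limma, adjusted p = 0.0106), and without MGH-CP1 replicate 1 the call was lost (adjusted p = 0.0623). MAT2A, which makes S-adenosylmethionine, was at 61.5 ± 2.27 and 57.7 ± 0.433 FPKM and was not called (limma, adjusted p = 0.234). The higher genes were the AHCY relatives AHCYL2 (log2 fold change 0.54, limma, adjusted p = 0.00293) and AHCYL1 (0.23, adjusted p = 0.0133), the latter lost without MGH-CP1 replicate 1 (adjusted p = 0.0867) or replicate 2 (adjusted p = 0.112).

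**Figure D4:**
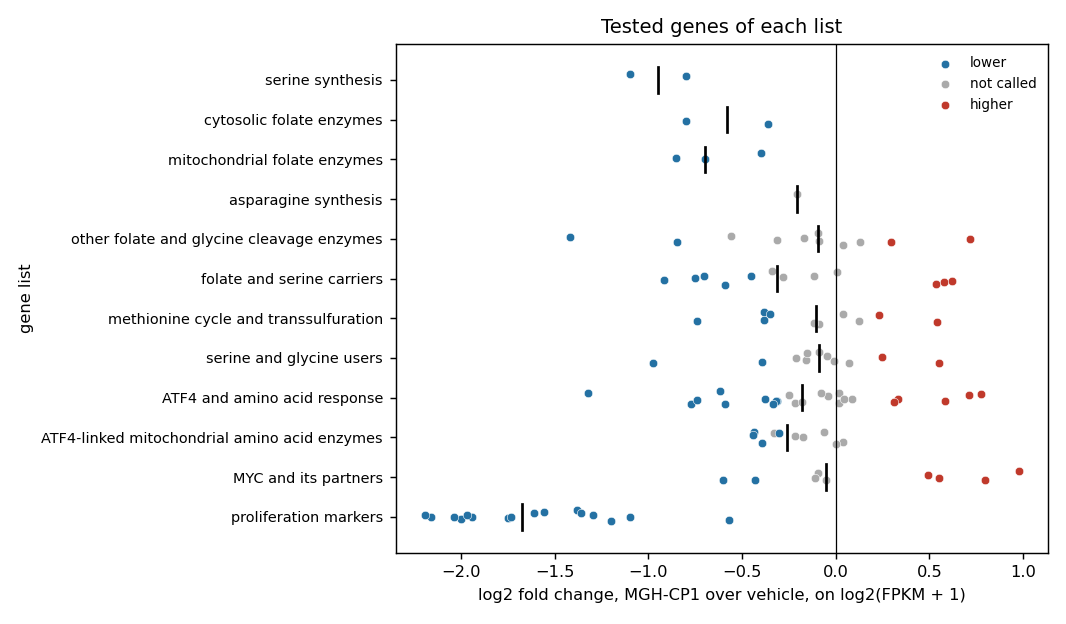
Log2 fold change of MGH-CP1 over vehicle (log2(FPKM + 1) scale) for each tested gene of the enzyme classes and of the lists around them, coloured by limma call, with the list median as a black bar. The enzyme classes with more than 1 tested gene have medians from -0.95 to -0.58, most other lists hold genes of both directions, and the proliferation markers lie at a median of -1.67.

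ATF4, whose targets include PSAT1, PSPH, SHMT2, MTHFD2 and ASNS, was at 48.9 and 42.4 FPKM in vehicle and at 37.7 and 35.2 FPKM with MGH-CP1. Its log2 fold change was -0.31 ± 0.08 (limma, adjusted p = 0.0160), a call lost without MGH-CP1 replicate 2 (adjusted p = 0.104) and with no filter (adjusted p = 0.0957). Of 23 tested genes of the ATF4 and amino acid response list, 9 were lower, 5 higher and 9 not called, with a median log2 fold change of -0.18. The most negative was SLC7A5, the leucine carrier, which went from 150 ± 7.29 to 59.5 ± 2.34 FPKM (a log2 change of -1.32 ± 0.06, limma, adjusted p = 2.01e-05). The stress-inducible genes DDIT3, TRIB3 and CHAC1 were not called, with DDIT3 at 1.37 and 1.32 FPKM by group means, TRIB3 at 11 ± 0.427 and 11.1 ± 0.755 FPKM, and CHAC1 at 2.00 ± 0.0926 and 1.85 ± 0.266 FPKM. SESN2 was called lower (log2 fold change -0.32, limma, adjusted p = 0.0331), a call lost in 8 of its 13 alternatives with adjusted p up to 0.181. CEBPB, a C/EBP partner of ATF4, was higher, from 48.1 ± 6.94 to 78.9 ± 0.0143 FPKM (a log2 change of 0.71 ± 0.09, limma, adjusted p = 0.000939).

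Among other amino acid enzymes linked to ATF4, most of them mitochondrial, 10 were tested, of which 4 were lower, 0 higher and 6 not called (median log2 fold change -0.26). GOT1 and GOT2, the aspartate aminotransferases, each changed by -0.44 on the log2 scale (limma, adjusted p = 0.00112 and 0.000709). PCK2 was at means of 8.04 and 6.76 FPKM and PYCR1 at 40.3 and 38.6 FPKM, and neither was called (limma, adjusted p = 0.0884 and 0.473). ALDH18A1, which starts proline synthesis, and the aminotransferase GPT2 were called lower, but both calls were lost without MGH-CP1 replicate 1 (limma, adjusted p = 0.0639 and 0.0561).

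MYC, the other regulator known for these enzymes, went from 58.3 and 54.4 FPKM to 42.4 and 40.5 FPKM. The groups did not overlap, and the log2 fold change was -0.43 ± 0.06 (limma, adjusted p = 0.00137). Of the 9 tested genes of the MYC list, 2 were lower, 4 higher and 3 not called. Genes of DNA synthesis and division fell more than the serine and one-carbon enzymes by their medians, with 16 of 16 proliferation markers lower at a median log2 fold change of -1.67, and their summed level was 1111 and 1122 FPKM in vehicle and 384 and 393 FPKM with MGH-CP1. RRM2, which with RRM1 makes deoxyribonucleotides, had group means of 76.2 and 15.9 FPKM (limma, adjusted p = 7.67e-06). ATF4, MYC and the proliferation markers moved in the same direction as the 7 lower enzymes, and their part in that result was not tested.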

How the data were processed

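RNA sequencing libraries of vehicle and MGH-CP1 cells (2 each) were compared. The authors deposited 1 table of FPKM values for 48162 genes, with hg19 coordinates and gene lengths per the file headers and the labels. Per the submitters' processing notes, CASAVA 1.8 and STAR were used with hg19. Not given in the sources used here are the STAR version, the annotation release, the read counter and its use of strand. Multiplied by gene length, all values (100% within 0.001 of a whole number) were whole multiples of 1 step per library, taken as reads, and the totals matched that step. A single read on 1 kb was worth 0.0541 to 0.0596 FPKM, so low genes are imprecise.

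Values were tested as log2(FPKM + 1), on which changes of low genes are understated, in limma 3.58.1 (R 4.3.3) with group as the only term, moderated variances with a trend, a mean of at least 1 FPKM (11790 genes) and Benjamini-Hochberg adjustment over all of them. Calls required an adjusted p under 0.05. Ratios used an exact permutation test (scipy 1.17.1). Scripts were tested on simulated data. Voom on recovered reads called, in the same direction, 5147 of the 5311 genes called here. The samples share replicate numbers only, and no pairing was used.

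The members and lists were chosen with earlier results of these data known. The text names all 10 enzymes, 15 genes fixed by name, and up to 3 called genes with the largest change in each direction per list. Some of the genes this rule names are not reported here. Alternatives were other pseudocounts, filters, scalings and moderation, voom, each library left out, and a replicate block. Of the marker genes, 1 endothelial entry did not match. Promoters came from RefSeq (GRCh38.p14), a different build than the table's hg19, and were joined by symbol only.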

Additional observations from a re-analysis of the deposited data

How the results depend on the processing

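The number of these enzymes called lower was 6 to 8 with 1 library left out, 6 without MGH-CP1 replicate 2 and 8 without MGH-CP1 replicate 1, and 7 with every other planned setting and with voom on recovered reads without a filter, which was added after seeing the data. Each of the 8 tested enzymes kept a negative log2 fold change in all 14 alternatives. Median centring and quantile normalization turned the split of all tested genes, with 2463 lower and 2845 higher, and 2590 lower and 2803 higher. All tested genes called higher numbered 1568 with no filter and 1460 to 2556 with 1 library left out.

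With a mean of at least 5 FPKM, which leaves fewer genes to test, other folate enzymes called higher numbered 1, carriers called lower 3, serine and glycine users called lower 4, ATF4 list genes called higher 3 and MYC list genes called lower 1. Serine and glycine users called lower numbered 4 with voom and 4 with the replicate block, and those called higher 1 with no filter and 1 with no trend. ATF4 list genes called higher numbered 2 with no filter. With 1 library left out, other folate enzymes called higher ranged from 1 to 3, methionine cycle genes called lower from 2 to 4 and higher from 1 to 2, users called higher from 1 to 2 and ATF4 list genes called higher from 2 to 5. The cause of these changes was not tested.

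Deviations of same-numbered libraries correlated at 0.0502 over 11790 genes, so the numbers were not taken as pairs. With the replicate block, 3036 genes were lower and 2453 higher. PHGDH rested on 24 to 91 reads and differed 3.44-fold between the vehicle libraries, and ALDH1L2 rested on 21 to 25 reads. No change could be resolved for either gene. Groups of 2 allow no check for an outlying library.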

Other observations

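Of 11 tested genes whose enzymes consume serine or glycine, 2 were lower (18.2%), 2 higher and 7 not called with limma, beside 25.1% lower and 20.0% higher among all tested genes. PTDSS1, which makes phosphatidylserine by exchange with serine, went from 23.6 and 23.4 FPKM in vehicle to 11.1 and 11.8 FPKM with MGH-CP1. That fall (log2 fold change -0.97 ± 0.06, limma, adjusted p = 5.79e-05) was close in size to that of PSAT1 (-1.10 ± 0.10), while its partner PTDSS2, named after its values were seen, was not called (log2 fold change -0.09, adjusted p = 0.312). ALAS1, which joins glycine to succinyl-CoA in heme synthesis, rose from 16.3 and 14.1 to 21.8 and 23.7 FPKM (a log2 change of 0.55 ± 0.08, limma, adjusted p = 0.00193). Of the serine palmitoyltransferase subunits, which start sphingolipid synthesis, SPTLC3 fell (log2 fold change -0.40, limma, adjusted p = 0.00487), and SPTLC2 was called higher (0.25, adjusted p = 0.0280) but lost the call in 5 of 14 alternatives, with adjusted p up to 0.129.

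Around MYC, genes of its antagonists of the MXD family had unequal changes. MXD4 rose from 27.2 ± 1.55 to 54.4 ± 1.89 FPKM (a log2 change of 0.98, limma, adjusted p = 5.64e-05), MXI1 from 13.4 to 24.1 FPKM (0.80, adjusted p = 0.000132) and MXD1 from 2.61 to 4.27 FPKM (0.55, adjusted p = 0.00357). MXD3 fell from 5.65 to 3.40 FPKM (a log2 change of -0.60, limma, adjusted p = 0.00462). These proteins compete with MYC for MAX, whose mRNA, named after its values were seen, was not called (log2 fold change -0.10, limma, adjusted p = 0.460).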
